A study of Mus musculus with 310 samples.

Results

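Klk7, Klk10, Spink5 and Cst6 encode proteases and protease inhibitors of the skin surface, and they are described here in single cells of mouse tail epidermis. They were taken by name, with earlier results of these data known, and all 4 were among the 14068 genes of the deposited counts. The table holds 310 sorted cells, each read out by full-length RNA sequencing. The protocol used no molecular identifiers, so reads can be PCR copies, and every interval below covers counting error only. The mice, of a mixed CBA C57BL/6 strain, all carried the Lrig1-EGFP-ires-CreERT2 allele and a tdTomato reporter, Rosa26-fl/STOP/fl-tdTomato. Hydroxytamoxifen, put once on the tail before wounding, switched on tdTomato in cells that expressed Lrig1, a stem cell gene of the upper hair follicle, and the sort then took tdTomato-positive cells. The label therefore covers Lrig1-expressing cells and their descendants, and cells outside that lineage are not represented.

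The time labels are 38w and 38wUW. The group 38w held RepI (70 cells, on plates C114 and C118) and RepL (75 cells, plate C119). The group 38wUW held RepM (82 cells, plate C128) and RepN (83 cells, plate C129). The series set repaired skin against age control skin, but the labels do not say which group is which, so every difference below is 38w minus 38wUW with no direction towards repair. The replicate was the unit of each comparison (n = 2 against n = 2), and no plate holds cells of more than 1 replicate, so replicate and plate cannot be told apart. The study's text describes biological replicates, but the labels do not say how many animals each of these replicates holds.

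The outermost layer of skin and of the follicle opening is shed when the corneodesmosomes, the last junctions between dead cornified cells, are cut. Klk7 is a chymotrypsin-like serine protease of the kallikrein family that cuts corneodesmosomes after it has been activated outside the cell. Klk10 is another secreted kallikrein, made by upper epidermal layers. Spink5 encodes LEKTI, an inhibitor with many Kazal-type domains that blocks Klk5, Klk7 and related kallikreins, and its loss causes Netherton syndrome with premature shedding. Cst6 encodes cystatin M/E, a secreted inhibitor of the cysteine proteases cathepsin L and legumain, and mice without it have a defective skin barrier. Transcripts were measured here, not enzyme activity.

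In GENCODE M21 (GRCm38), Klk10 lies at chr7:43781035-43785410 and Klk7 at chr7:43811294-43816359, both on the plus strand of the kallikrein cluster and 25883 bases apart. The RefSeq promoter table for GRCm38.p6 had entries for 2 of the 4 members, Klk7 and Klk10. The 250 bases before each RefSeq start are shown because 21 of the 27 cells with Klk10 reads also had Klk7 reads, although 36 of the 57 Klk7 cells had no Klk10. Capitals mark the GT box CCACCC or its reverse complement, a motif of KLF-type zinc-finger factors. The Klk7 stretch is chr7:43811044-43811293 and the Klk10 stretch chr7:43780804-43781053, both plus strand.
Klk7: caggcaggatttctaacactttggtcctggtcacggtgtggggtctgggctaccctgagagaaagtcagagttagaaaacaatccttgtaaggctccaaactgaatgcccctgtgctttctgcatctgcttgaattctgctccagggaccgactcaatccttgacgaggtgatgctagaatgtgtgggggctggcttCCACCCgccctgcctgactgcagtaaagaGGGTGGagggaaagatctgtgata
Klk10: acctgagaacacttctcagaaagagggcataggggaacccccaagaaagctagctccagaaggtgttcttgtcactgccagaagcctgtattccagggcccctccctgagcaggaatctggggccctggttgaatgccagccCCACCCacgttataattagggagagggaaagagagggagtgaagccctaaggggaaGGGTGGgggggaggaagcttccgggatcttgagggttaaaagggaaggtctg
Each promoter held 2 GT boxes over both strands, and CCACCC or GGGTGG was in 28.1% of the 32851 promoters in the table. The letters of an AP-1 site (TGANTCA, in 6.75% of promoters), a GATA site (AGATAA, in 9.99%) and a TATA box (TATAAA, in 12.4%) were in neither window.

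Cells had 11711 to 721564 reads (median 61294) and 1996 to 5840 genes. Reads of keratinocyte markers were in all 310 cells, at 12283 to 27385 CPM (the counts-per-million scale) per replicate. The 3 immune markers in the table summed to 1.31 to 2.93 CPM, with reads of any of them in 33 cells. The 5 fibroblast markers summed to 8.42 to 62.7 CPM, with reads in 97 cells. The 2 melanocyte markers summed to 7.11 to 15.1 CPM, with reads in 103 cells. Plate C114 stood apart: ribosomal protein genes took a median 31.8% of a cell's reads, against 3.60% to 6.84% on the other plates. Plate C118 had the highest median mitochondrial share, 33.8%, against 2.77% to 18.3% on the other plates. By replicate this share was 4.28% in RepI and 9.69% in RepL, below the 14.6% in RepM and 18.3% in RepN, and its part in the group differences below was not tested. The names of 15 cells carry an unexplained suffix, of which 2 read MBULK and may not be single cells.

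In the same annotation, Spink5 lies at chr18:43963235-44022501 on the plus strand, with 32 exons, and Cst6 at chr19:5344705-5349574 on the minus strand, with 3 exons. The 4 genes differed widely in how many cells held them. Cst6 reads were found in 167 of 310 cells (53.9%), Spink5 reads in 113 (36.5%), Klk7 reads in 57 (18.4%) and Klk10 reads in 27 (8.71%). The cells with Klk7 reads and those without had similar depth, with medians of 66071 and 60226 reads. For Klk10 the medians were 89033 and 60032 reads, and for Cst6 75395 and 51119 reads, so the deeper cells were over-represented among the cells with these genes.

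Cst6 reached levels of another order than the other members. In the cells that had it, the median was 251 CPM, 47 cells exceeded 10000 CPM and 14 exceeded 100000 CPM. At the extreme, a C114 cell gave 57.8% of all its reads to Cst6. The maxima of the other members were 25871 CPM for Klk7, 57614 CPM for Klk10 and 30545 CPM for Spink5. The same C114 cell held 6160 Klk10 reads, 443 Klk7 reads and 78 Spink5 reads. Reads were concentrated in few cells: the 10 cells with most reads held 98.7% of all Klk10 reads, 77.7% of Cst6, 72.0% of Klk7 and 69.2% of Spink5.

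To place the members within the lineage, each cell was assigned to whichever of 6 marker lists had the highest mean z-score, none of which contains a member. The infundibular and duct list, of genes of the hair follicle opening and the sebaceous duct, was highest in 54 cells. Its 8 markers set the assignment, so their presence there is no separate support for the name. They ran from Gsdma in 36 of 54 cells (9.77% of the other cells) to Krt79 in 53 (25.4%). Gata6 was found in 47 of 54 cells, against 21.5% of the other cells. Across all lists, 17 cells led their next list by under 0.1, none of them among the 54.

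All 4 genes were highest in the infundibular and duct list cells. Cst6 was found in 54 of 54, with a median cell level of 32637 CPM. Spink5 was found in 52 of 54, Klk7 in 36 and Klk10 in 18. These cells, 54 of 310, held 97.6% of all Cst6 reads, 90.7% of Klk10, 79.9% of Klk7 and 69.5% of Spink5. Without the MBULK libraries the Klk7 share was 90.1% and the Klk10 share 99.5%, and without C114 the Klk10 share was 76.4%. When every cell was thinned to 20000 reads, 52 of the 54 were deep enough to be counted. At least 1 read was then found in 100% of these 52 cells for Cst6 (95% Wilson interval 93.1 to 100), 94.2% for Spink5 (84.4 to 98.0), 65.4% for Klk7 (51.8 to 76.8) and 28.8% for Klk10 (18.3 to 42.3). The assignment and the levels come from the same cells, so these are descriptions and no test was made.

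Per length (CPM divided by the length in kilobases of the longest coding transcript), the order within these cells was Cst6 at 22123, Klk10 at 1132, Klk7 at 637 and Spink5 at 470.5. The Cst6 figure rests on a transcript of 3951 bases and would be higher for the other annotated one, of 432 bases. The Klk10 figure rests on few cells, so its place above Klk7 and Spink5 does not describe the typical cell: 36 of the 54 cells had no Klk10 read.

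**Figure D1:**
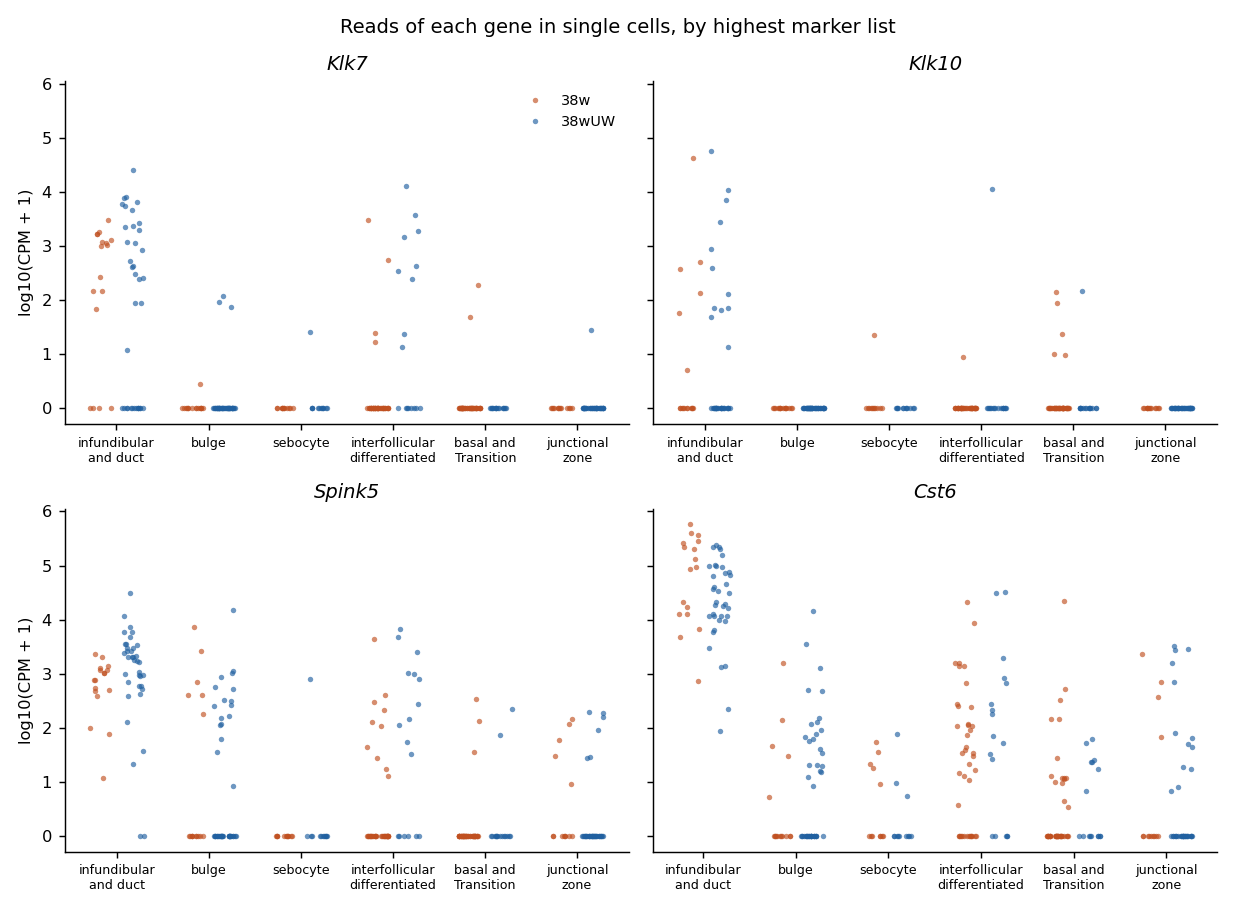
Level of each member in each of the 310 cells, as log10(CPM + 1), by the marker list that was highest in the cell and by group (orange 38w, blue 38wUW). The infundibular and duct column holds the highest Cst6 cells, all 54 of them above 0, while Spink5 also stands above 0 in 23 of the 61 bulge list cells.

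Outside these cells the members parted. In the 58 cells with the interfollicular differentiated list highest, Klk7 was found in 13, Spink5 in 21 and Cst6 in 39, and these cells held 19.2% of Klk7 reads, 1024 of 1721 of them in the MBULK library of RepN. In the 61 bulge list cells, where the markers are of the lower stem cell niche, Spink5 was found in 23. Over the summed reads of the 61 cells Spink5 reached 519.5 CPM, but the median cell was at 0 CPM. Of their 4261 Spink5 reads, 1 cell of C118 held 2483 and 1 cell of C128 held 1012. In the same 61 cells Klk7 was found in 4 and Klk10 in 0, which allows up to 4.92% of cells. In the 62 basal and Transition list cells, Klk10 was found in 6, Spink5 in 5 and Klk7 in 2, each at most 347 CPM in a cell. In the 51 junctional zone cells, Spink5 was found in 11 at no more than 193 CPM, and in the 24 sebocyte cells Spink5 was found in 1.

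Low Cst6 was widespread. Of the 256 cells outside the infundibular and duct list, 113 had Cst6 reads, 68 of them under 100 CPM and 19 over 1000 CPM. The highest interfollicular differentiated list cell was at 32432 CPM, in the MBULK library of RepN. The maxima were 21702 CPM in basal and Transition list cells and 14189 CPM in bulge list cells. The share of the 256 with Cst6 reads was 61.4% on C114, the plate with the highest summed Cst6 (48126 CPM). It ran from 25.0% (C118) to 53.7% (C129) on the other plates. The values under 100 CPM are not read as expression.

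The members were next followed within the same cell. Of the 57 cells with Klk7 reads, 54 (94.7%, Wilson interval 85.6 to 98.2) also had Spink5 reads and 55 also had Cst6 reads. Of the 253 cells without Klk7, 59 (23.3%) had Spink5. This contrast mixes cells of different lists. Among infundibular and duct list cells, Spink5 was in all 36 cells with Klk7 and in 16 of the 18 without it. Among interfollicular differentiated list cells it was in 12 of 13 with Klk7 and in 9 of 45 without it. The 3 cells with Klk7 but no Spink5 each had 1 Klk7 read, whereas all 52 cells with at least 2 Klk7 reads had Spink5. Without plate C114 the count was 45 of 47, without the 15 suffixed cells 50 of 52, and after thinning 45 of 48.

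Klk10 lay within the Klk7 cells for the most part. Of the 27 Klk10 cells, 21 had Klk7, and all 21 also had Spink5 and Cst6. The other 6 had 1 to 25 Klk10 reads and at most 150 CPM, and 5 of them were basal and Transition list cells and 1 a sebocyte list cell. None of the 6 had Spink5 reads.

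The reverse did not hold. Of 113 Spink5 cells, 59 had no Klk7. The Spink5 level was lower in these 59 (median 252 CPM, of the cells with Spink5 reads) than in the 54 with Klk7 (median 1096 CPM). The same held among infundibular and duct list cells, with medians of 612 CPM in 16 cells without Klk7 and 1730 CPM in 36 with it, at median depths of 55546 and 61775 reads. These medians are descriptions, with no test. Among the bulge list cells, 20 of 23 Spink5 cells had no Klk7.

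Taking the 4 genes together, 38.4% of the 310 cells had none of them, 41.3% had an inhibitor and neither protease, 60 cells (19.4%) had a protease and an inhibitor, and 3 cells had a protease and neither inhibitor. Of these last 3, 2 had Klk10 alone and 1 had Klk7 alone. The inhibitor-only cells include 69 with Cst6 alone, 50 of them under 100 CPM, a level not read as expression above. A further 20 had Spink5 alone and 39 had both inhibitors. In the infundibular and duct list cells the counts were 36 with protease and inhibitor, 18 with inhibitor only, and 0 with protease only. After thinning, 3 of 277 cells had a protease and neither inhibitor.

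**Figure D2:**
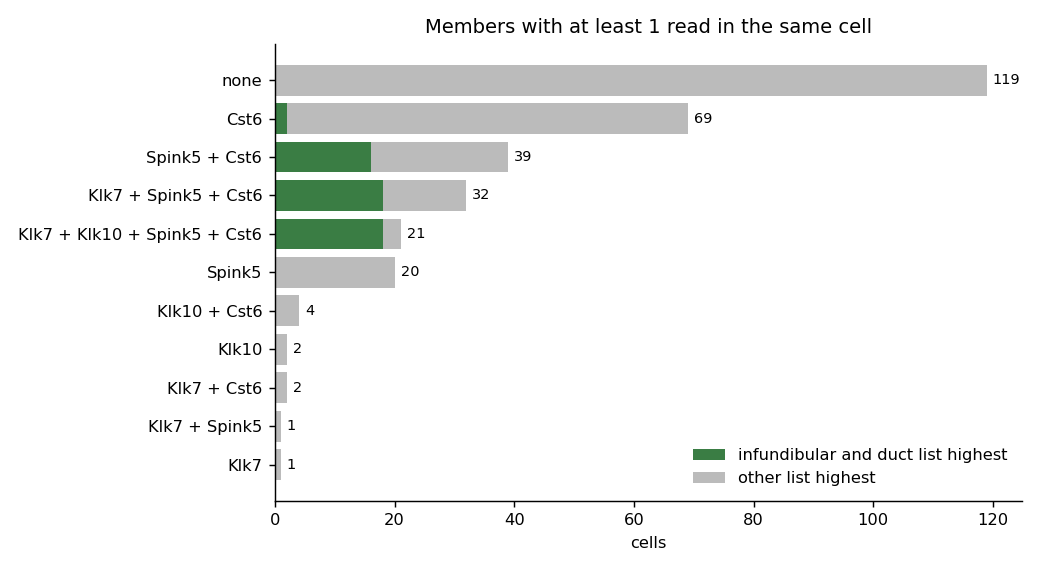
Number of cells (horizontal axis) for each combination of members with at least 1 read in the same cell, with the infundibular and duct list cells in green and all others in grey. The 4 genes occurred together in 21 cells, 18 of them green, and Klk7 occurred without Spink5 in 3 cells.

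Among the 54 cells with both Klk7 and Spink5 reads, the per-cell log2 ratio of Klk7 to Spink5 reads had a median of -0.40 and quartiles of -1.93 and 0.85. It ranged from -6.98 to 3.84. Klk7 had more reads than Spink5 in 21 of the 54, and in 37 of 54 once reads were divided by transcript length (1895 bases for Klk7, 4785 for Spink5). The plates differed: Klk7 reads exceeded Spink5 reads in 8 of 9 such cells on C114, 2 of 8 on C119, 8 of 23 on C128 and 3 of 14 on C129.

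**Figure D3:**
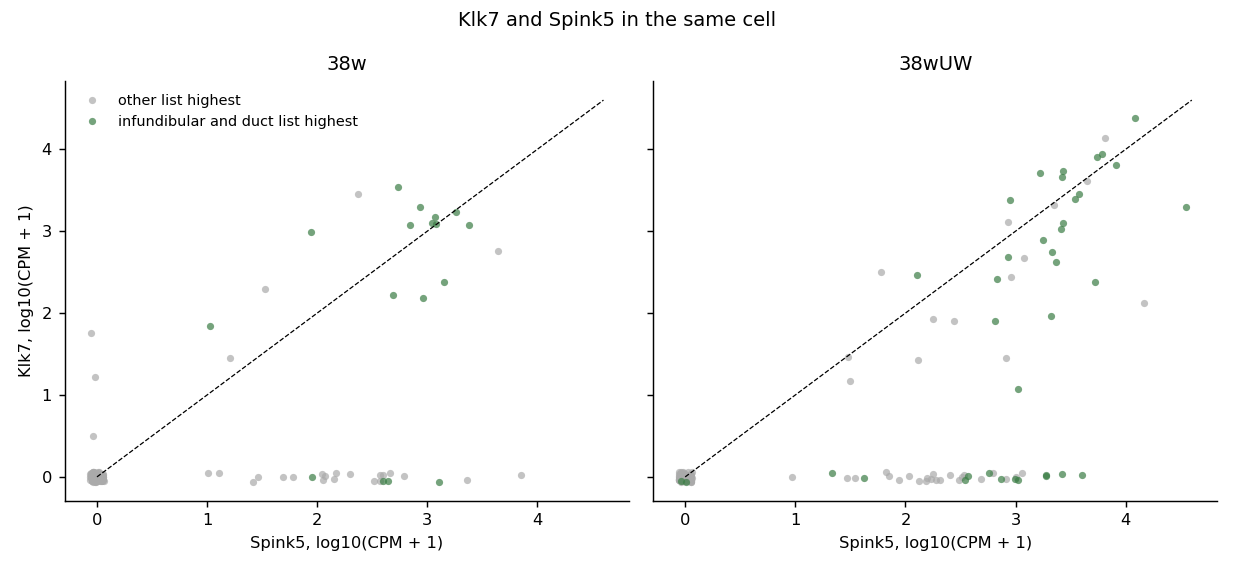
Klk7 against Spink5 in each cell, both as log10(CPM + 1), for 38w (left) and 38wUW (right), with infundibular and duct list cells in green, a slight random shift to separate points, and a dashed line of equal CPM. Points along the horizontal axis are the 59 cells with Spink5 and no Klk7, and 3 points on the left panel have Klk7 and no Spink5.

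Over all cells, after plate means were subtracted and on the scale of log2(reads per 10000 + 1), the 5 genes most like each member were taken by Pearson's r. For Klk7 they were Sprr1a (r = 0.86), a cornified envelope precursor, Teddm3 (0.82), Psapl1 (0.77), Gsdma (0.74), a gasdermin, and the keratin Krt80 (0.73), of 9245 genes compared. For Cst6 they were Ly6g6c (0.88), Teddm3 (0.85), the beta-defensin Defb6 (0.84), Sprr1a (0.83) and Psapl1 (0.83). Spink5 was most like Cst6 (0.76) and then Klk7 (0.72), Sprr1a (0.71), Teddm3 (0.70) and Slc46a2 (0.69). For Klk10 the values were lower: Trp53inp2 (0.64), Sprr1a (0.64), Klk7 (0.63), Mxd1 (0.63), a MYC antagonist, and Gsdma (0.62). Klk10 is found in only 27 cells, which limits these coefficients. Psapl1, Gsdma and Defb6 are markers of the infundibular and duct list, and all values are over the same 310 cells, which share plates and depth. Within the 54 infundibular and duct list cells the correlation of Klk7 with Spink5 was still 0.65, with Klk10 0.59 and with Cst6 0.48.

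The groups were then compared on reads summed per replicate over all cells. Klk7 stood at 172 CPM in RepI and 51.5 CPM in RepL, and at 628 CPM in RepM and 276 CPM in RepN. Both 38w replicates lay below both 38wUW replicates. The log2 fold change was -1.76 (SE 0.96), with an adjusted p of 0.652 in edgeR's quasi-likelihood test. Without its MBULK library RepN stood at 198 CPM, above RepI as a whole but below plate C114 of RepI (209 CPM). The other plate of RepI, C118, had 0 reads of Klk7. Klk7 was lower in 38w under all 16 alternatives run, from -3.88 to -1.02. The Klk7 fold change was -2.90 without RepI. With all 4 replicates kept, no alternative passed the threshold of 0.05 (lowest adjusted p = 0.435, DESeq2).

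Spink5 was at 379 CPM in RepI and 169 CPM in RepL, and at 989.9 CPM in RepM and 708 CPM in RepN, so the groups again did not overlap. The log2 fold change was -1.38 (SE 0.96, adjusted p = 0.713, edgeR), and it ranged from -2.10 (without RepI) to -0.83 (without RepL) when 1 replicate was left out. RepI is made of 2 unlike plates for this gene, C118 at 1496 CPM and C114 at 139 CPM. A single bulge list cell of C118 held 2483 of the 3686 Spink5 reads of RepI, and with RepI from C118 only the fold change was 0.26 in place of -1.38.

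Klk10 gave no direction. The 38w replicates stood at 650.3 CPM (RepI) and 8.62 CPM (RepL), the 38wUW replicates at 513 CPM (RepM) and 77.1 CPM (RepN) (log2 fold change 0.42, SE 1.33, adjusted p = 0.944, edgeR). A single infundibular and duct list cell held 6160 of the 6324 Klk10 reads of RepI, and the MBULK library held 896 of the 998 reads of RepN, without which RepN stood at 7.93 CPM. The fold change turned to -4.87 without RepI.

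Cst6 stood at 39694 CPM (RepI) and 2543 CPM (RepL) in 38w and at 15749 CPM (RepM) and 3479 CPM (RepN) in 38wUW, so the groups overlapped (log2 fold change 1.39, SE 1.63, adjusted p = 0.826, edgeR). Plate C114 had 48126 CPM and C118, of the same replicate, 448 CPM. The fold change was -1.69 without RepI and 2.38 without RepL, so the direction rests on plate C114.

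**Figure D4:**
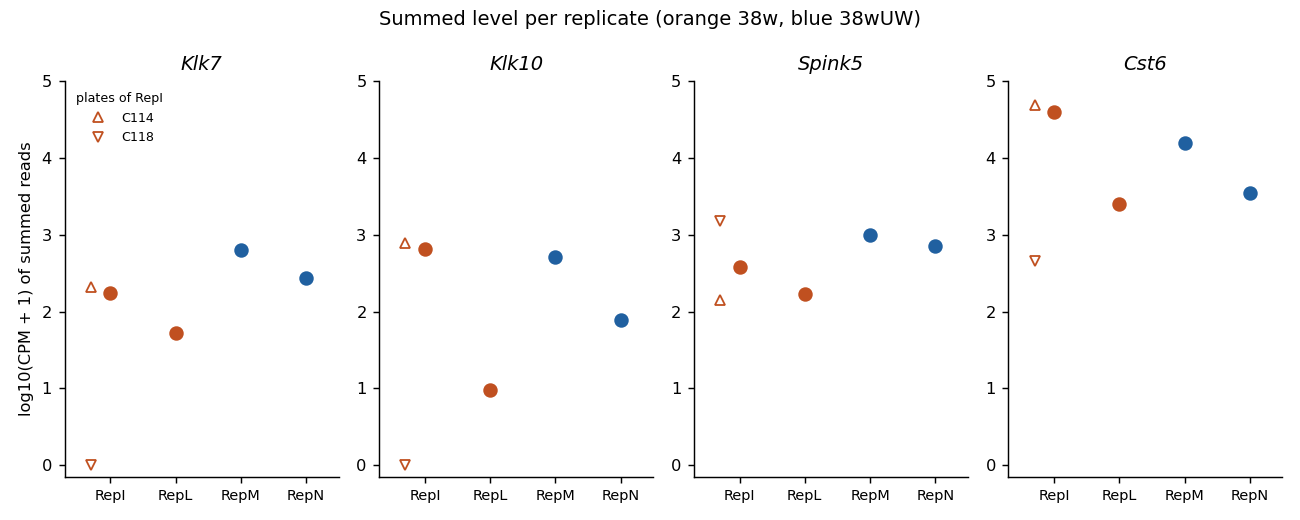
Summed level of each member per replicate as log10(CPM + 1), with 38w in orange and 38wUW in blue, and open triangles for the 2 plates of RepI. For Klk7 and Spink5 both orange points lie below both blue points, for Klk10 and Cst6 the groups overlap, and C118 has 0 reads of Klk7 and of Klk10.

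In this comparison 0 of the 4 members passed, and the background was the same, with 0% of the 11760 tested genes called at an adjusted p under 0.05 by edgeR, 8.07% at an unadjusted p under 0.05 (3.78% with 38w lower, none of the members) and 0.551% by DESeq2 (none of the members). Groups that did not overlap, with 38w lower, were seen in 26.2% of tested genes, against 2 of 4 members, and with 38w higher in 12.6%, against 0 of 4 members. The 17 cells of C118 had 0 reads of Klk7 and of Klk10, which allows up to 17.6% of cells. Of these 17 cells, 1 was an infundibular and duct list cell. The median log2 fold change was 0.12 over all tested genes.

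The share of cells with reads was compared after thinning to 20000 reads, which 277 cells reached. Klk7 was found in 14.7% of RepI, 11.4% of RepL, 28.1% of RepM and 16% of RepN cells (13.1% ± 2.32 in 38w and 22.1% ± 8.57 in 38wUW, SD, n = 2 each). Spink5 was found in 23.5%, 24.3%, 43.8% and 37.3% in the same order (23.9% ± 0.535 and 40.5% ± 4.54). Cst6 was found in 45.6%, 28.6%, 50% and 46.7%, and Klk10 in 7.35%, 4.29%, 12.5% and 5.33%. Cells with both Klk7 and Spink5 made up 10.3%, 11.4%, 28.1% and 16%. All but the Klk10 share were lower in both 38w replicates, each with an exact two-sided permutation p of 0.333, the smallest that 4 replicates allow (Klk10 p = 0.667). The shares of 3 of the 4 members were thus lower in 38w without overlap, as was so for 33.1% of the 12002 genes found in at least 5 thinned cells. None of the 5 shares could reach the threshold.

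The share of infundibular and duct list cells also differed between replicates, with 14.3% of RepI and 9.33% of RepL cells against 25.6% of RepM and 19.3% of RepN cells. The other lists differed too. The bulge list was highest in 5.71% of RepI and 16% of RepL cells against 23.2% of RepM and 31.3% of RepN cells, and the junctional zone list in 14.3% and 4% against 25.6% and 20.5%. The interfollicular differentiated list was highest in 30% and 26.7% against 10.98% and 9.64%, and the basal and Transition list in 31.4% and 32% against 8.54% and 10.8%. The part of these shares in the levels over all cells was not tested, and the members were also compared within these cells (10, 7, 21 and 16 in the order of the replicates). There Spink5 was at 801 CPM in RepI and 946 CPM in RepL against 2683 CPM in RepM and 2952 CPM in RepN, a log2 fold change of -1.17 (SE 1.21, adjusted p = 0.856, edgeR). The groups did not overlap, as was so for 30.9% of the 7227 genes tested there with 38w lower, and the fold change was negative in all 8 alternatives. Klk7 was at 1086, 623, 2148 and 808 CPM, a log2 fold change of -0.22 (SE 1.21, adjusted p = 0.977), with overlapping groups. Cst6 was at 280566, 35150, 54696 and 15343 CPM (2.82, SE 1.87, adjusted p = 0.825). Klk10 was at 4646, 116, 1806 and 38.9 CPM (2.04, SE 1.66, adjusted p = 0.828). None of the 4 passed, as 0% of the genes tested within these cells did, with 6.01% at an unadjusted p under 0.05 (4.51% with 38w lower, none of the members). Groups without overlap and higher in 38w made up 7.54% of these genes, with 0 of the 4 members.

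In the interfollicular differentiated list cells, singled out after the values were seen, Klk7 was found in 2 of 21 cells of RepI and 2 of 20 of RepL, against 5 of 9 of RepM and 4 of 8 of RepN. After thinning the counts were 2 of 20, 1 of 20, 2 of 7 and 4 of 7. A Klk7 cell of RepN is that of the MBULK library. No test was made.

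The balance of protease to inhibitor was taken per replicate as the log2 ratio of summed reads, with 1 read added to each side. For Klk7 to Spink5 the 38w values were -1.14 (RepI) and -1.71 (RepL), and the 38wUW values -0.66 (RepM) and -1.36 (RepN). The groups overlapped (-1.42 ± 0.41 and -1.01 ± 0.50, SD, n = 2 each), and the difference of -0.42 had an exact permutation p of 0.667. It was -0.22 without the MBULK libraries. Dividing by transcript length adds 1.34 to every value and leaves the difference as it is. Within the infundibular and duct list cells the difference was 1.01, and with RepI from C114 only 0.45, so the balance of Klk7 to its inhibitor had no direction that held under these settings. Klk7 reads were in 9 of 21 Spink5 cells of RepI (42.9%) and 8 of 20 of RepL (40%), against 23 of 40 of RepM (57.5%) and 14 of 32 of RepN (43.8%).

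For both kallikreins against both inhibitors the 38w values were -5.61 (RepI) and -5.49 (RepL), and the 38wUW values -3.87 (RepM) and -3.57 (RepN). The 38w replicates lay below both 38wUW replicates (difference -1.83, exact permutation p = 0.333, the smallest possible). The ratio was lower in 38w in all 11 alternatives run, from -4.88 to -1.44. Single libraries weigh heavily in it. Of the 8001 kallikrein reads of RepI, 1 C114 cell held 6160 of Klk10 and 443 of Klk7. Of the 4570 of RepN, the MBULK library held 896 of Klk10 and 1024 of Klk7. The difference was -1.50 without the MBULK libraries, and leaving out the C114 cell was not tested. Cst6 made up most of the inhibitor reads in every replicate, 386032 of 389718 in RepI, so this ratio is mostly kallikrein reads over Cst6 reads, which are not an enzyme and its inhibitor. For Cst6 and a protease it does inhibit, cathepsin L (Ctsl), the ratio of Ctsl to Cst6 was -7.82, -2.54, -5.56 and -3.08, with the 2 replicates of 38w lying on either side of both 38wUW replicates (difference -0.86, exact permutation p = 1).

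**Figure D5:**
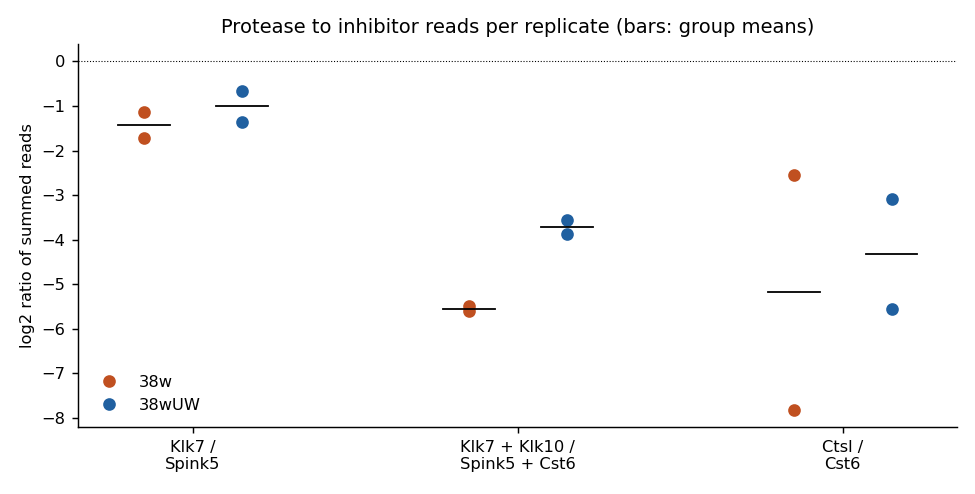
Log2 ratio of summed protease reads to summed inhibitor reads in each replicate (points) with group means (bars), 38w in orange and 38wUW in blue, and a dotted line at equal reads. The groups overlap for Klk7 to Spink5 and for Ctsl to Cst6, and do not overlap for both kallikreins to both inhibitors.

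Of 31 other desquamation genes listed by role, 26 were in the table and tested. Klk12, Klk13, Klk14, Spink6 and Spink12 were not analysed here. In edgeR 0 of the 26 were called in either direction. Those with an unadjusted p under 0.05 numbered 2, a share near the 8.07% of all tested genes. They were the transglutaminase Tgm3, at 3.69 (SE 1.35) on the log2 scale, and the cystatin Cst3, at 2.27 (SE 1.03). Each had an adjusted p of 0.617 in edgeR. For both, RepL lay below RepM (Tgm3 3.45 against 3.65 CPM, Cst3 93.3 against 112 CPM), so the groups overlapped. Within RepI, Tgm3 was at 52.6 CPM on C114 and 4.65 CPM on C118, and Cst3 at 801 and 177 CPM. The median log2 fold change of the 26 was 0.71, against 0.12 over all tested genes, with 16 above 0 and 10 below, and it was -0.63 with RepI from C118 only. Of the 4 other kallikreins with values, Klk5, Klk6 and Klk11 were found more often in infundibular and duct list cells than elsewhere (53.7% against 7.03%, 27.8% against 1.95% and 53.7% against 16.02%), while Klk8 was at 13.0% and 11.3%. Klk5, which activates other kallikreins, was found in 35 of the 57 Klk7 cells (61.4%) and in 4.74% of the other cells. Klk6 was found in 19 of the 57 and 0.395% of the rest, Klk11 in 56.1% and 15.02%, and Klk8 in 28.1% and 7.91%. Kallikrein genes are paralogs, and how the authors' counting shared reads among them was not tested.

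Genes of corneodesmosome proteins were found in a larger share of Klk7 cells than of other cells. Cdsn, which encodes corneodesmosin, was found in 26 of the 57 Klk7 cells (45.6%) and in 0.791% of the other cells, and Dsc1, the desmocollin of the upper layers, in 45 of 57 (78.9%) and 17.8%. Dsg1a was found in 91.2% and 53.0%, and Dsg1b in 71.9% and 44.3%. Of the 57 Klk7 cells, 36 were infundibular and duct list cells. In the 54 cells of that list Cdsn was found in 37.0%, Dsc1 in 74.1%, Dsg1a in 94.4% and Dsg1b in 77.8%. All 4 had negative log2 fold changes between groups, from -1.08 to -0.56, with adjusted p values of 0.733 or more (edgeR). The signs were not stable for 3 of them: with RepI from C118 only Dsg1a was at 0.04 and Dsg1b at 0.09, without RepI Dsg1a was at 0.03, and without RepM Cdsn was at 1.14.

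Among the other proteases and inhibitors the pattern was mixed. Ctsl was found in 63.0% of infundibular and duct list cells and 56.2% of the others. Legumain (Lgmn), another Cst6 target, was found in 31.5% and 32.4%. Cathepsins H, B and D (Ctsh, Ctsb, Ctsd) were found in 66.7%, 98.1% and 98.1% of infundibular and duct list cells, against 40.2%, 83.2% and 64.5% of the others. Asprv1, an aspartic protease of the upper epidermis, was found in 31.5% and 3.12%. The inhibitor Spint2 was found in 54 of 54 infundibular and duct list cells and 68.8% of the others, and the cystatin Cstb in 54 of 54 and 73.4%. Tgm3, which cathepsin L can activate, was found in 2 of 54 and in 18.0% of the other cells. These are shares at each cell's own depth, with medians of 54125 to 71546 reads across the 6 lists.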

How the data were processed

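Sorted cells were lysed in plates, and cDNA made by a variant of Smart-seq2 was amplified by PCR and sequenced from 1 end. Per the study's methods, the authors mapped reads to the Ensembl 101 mouse transcriptome with Salmon 0.13.1 and deposited the resulting estimated counts, 1 column a cell, without scaling. Of all values, 3.60% were not whole. For the 4 members, 12 Cst6 values were not whole. The tool version and the builds mm10 and GRCm38 are from the submitters' processing notes. The study removes cells with fewer than 1000 genes or over 50% mitochondrial reads; whether this had been done to the table is not given in the sources used here. On C114, some wells were named by 2 cells, with and without a suffix, and both were kept. Doublets were not called, since a well was meant to hold 1 cell.

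Estimated counts were summed per replicate, rounded and put through the quasi-likelihood F-test of edgeR 4.0.16 (R 4.3.3), with TMM scaling and filterByExpr, and p-values were adjusted by Benjamini-Hochberg across every gene tested (threshold 0.05), with DESeq2 1.42.0 as an alternative. The SE is the log2 fold change over the root of F. Shares used cells thinned to 20000 reads. Shares and balances were compared with exact two-sided permutation tests over the 4 replicates. The study's text describes biological replicates, but the labels tie no replicate to an animal or pool, so p-values measure the spread between these labelled samples. Marker lists used genes found in at least 5 cells. The genes named are the 4 members, the listed desquamation genes, and the 5 genes most like each member among those found in at least 31 cells. The members and lists were chosen with earlier results of these data known. The fits were tested on simulated data. Alternatives covered tool, scaling, low-count filter, thinning, replicates, plates, batch tags and suffixed cells.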

Additional observations from a re-analysis of the deposited data

How the results depend on the processing

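Of 230 recomputed values, 201 were the same as the main result by the rule for their kind. Fold changes had to keep their direction and their side of the threshold. Shares and balances were judged by direction only, since their test cannot reach the threshold. Counts, and percentages without a group difference, were judged by closeness to the main value. All values here are 38w minus 38wUW, as log2 fold changes unless said. No paired analysis was possible because RepI, RepL, RepM and RepN share no number, so the batch tags, which recur in both groups, were used as a block over plates instead. Leaving out 1 replicate at a time moved Klk7 over all cells from -2.90 (without RepI) to -1.02, and within infundibular and duct list cells from -0.93 to 0.65. Klk10 moved from -4.87 (without RepI) to 2.39, with -0.40 without RepN, and within these cells from -2.68 to 6.61 (2.85 without RepL). Cst6 moved from -1.69 (without RepI) to 2.89 (2.38 without RepL), and within these cells from 0.32 to 4.01 (3.52 without RepL). With a replicate left out, the other replicate of its group is assumed to vary like the remaining group. Spink5 moved from -2.10 to -0.83 and the balance of Klk7 to Spink5 from -0.77 to -0.06. The members called ranged from 0 to 2 and the listed desquamation genes called from 0 to 3. The balance of Ctsl to Cst6 ranged from -3.50 to 1.78, and the Klk10 share of cells from -6.68 to 0.486 percentage points (0.588 without thinning). With RepI from C118 only, Klk10 was at -5.73, Cst6 at -2.46, Spink5 at 0.26 and the balance of Ctsl to Cst6 at 2.21, and with RepI from C114 only the balance of Klk7 to Spink5 was at 0.45, against 1.01 within infundibular and duct list cells. With equal weight per cell Klk10 was at -0.53. With plates as units and the batch tag as a block Klk7 was at -2.35, Klk10 at -2.15, Spink5 at -0.81 and Cst6 at 0.17, and with the alternative tag at -2.85, -4.56, -0.85 and -1.27 in that order. No member was called by edgeR in these blocked fits (lowest adjusted p = 0.949). The cause was not tested in any of these. Over all genes edgeR called 0 of 11760, DESeq2 70 of 12703 and edgeR with no low-count filter 1 of 14067. The counts of Klk7 cells with at least 2 reads and the shares of reads without C114 or the MBULK libraries were added after seeing the data. Of Klk7 cells with at least 2 reads, 100% had Spink5. The number of cells limits Klk10 most, since 27 carry it.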
